A study of Mus musculus with 72 samples.

Results

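The genes described here are 10 genes of fatty acid synthesis and of its transcriptional control: the regulators Srebf1, Mlxipl and Thrsp, the supply enzymes Acly and Me1, the carboxylases Acaca and Acacb, the synthase Fasn, the elongase Elovl6 and the desaturase Scd1. They were chosen by symbol, as every probe set that the platform annotation gives to a member, out of 18193 genes named by such a probe set. Together they held 23 probe sets, of which 21 were bright enough to be tested for liver, 18 for kidney, 17 for heart and 16 for brain. All 10 genes had a tested probe set in liver, kidney and heart and 9 in brain, where Acacb was too dim.

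In de novo lipogenesis, citrate from the mitochondria is split to acetyl-CoA, carboxylated to malonyl-CoA and joined by fatty acid synthase into palmitate, which is then elongated and desaturated. Insulin acts on this pathway in the liver mainly through SREBP1c, a membrane-bound transcription factor encoded by Srebf1, and glucose through ChREBP, encoded by Mlxipl. The pathway is known for its high activity in liver and adipose tissue of the fed mouse, and for its fall on fasting.

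The series holds RNA from 4 organs of female mice of the strain Senescence accelerated mice prone 1 (SAMP1), which ages early, on 72 Affymetrix arrays. From 4 weeks of age the mice ate QH2 (the reduced form of coenzyme Q10), Q10 (the oxidised form) or a control diet, with an intake of 500 mg of either compound per kg of body weight per day. After 6 or 14 months, at an age of 7 or 15 months, liver, kidney, heart and brain were taken from 3 mice per group, which gave 24 groups of 3 arrays: QH2, Q10 and control at each duration in each organ. The groups at 14 months differ from those at 6 months in age, in time on the diet and in any array batch, and these cannot be told apart. Cage groups stayed unchanged through the study, so cage and diet may coincide, and the labels do not say whether arrays of different organs share a mouse.

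The probe sets and genes lie on mouse chromosomes 11 (Srebf1, Acly, Acaca and Fasn), 5 (Mlxipl and Acacb), 7 (Thrsp), 9 (Me1), 3 (Elovl6) and 19 (Scd1). The promoters of 3 members, Srebf1, Thrsp and Fasn, are shown from RefSeq, build GRCm38.p6, because SREBP1, ChREBP and their partners NF-Y and SP1 act at such sites. Each runs 5′ to 3′ from 250 bases before a start site to 50 bases after its first base, on the minus strand. For Srebf1 it is the window of 1 of 3 start sites, chr11:60210422-60210721, for Thrsp chr7:97417501-97417800 and for Fasn chr11:120824498-120824797. Capitals mark matches, on either strand, to the motifs named after the sequences.
Srebf1: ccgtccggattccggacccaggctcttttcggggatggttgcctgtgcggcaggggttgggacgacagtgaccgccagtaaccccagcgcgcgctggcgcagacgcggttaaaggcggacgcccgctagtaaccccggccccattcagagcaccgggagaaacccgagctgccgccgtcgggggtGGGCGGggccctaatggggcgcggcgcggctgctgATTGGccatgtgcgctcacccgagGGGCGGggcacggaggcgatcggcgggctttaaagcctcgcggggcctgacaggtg
Thrsp: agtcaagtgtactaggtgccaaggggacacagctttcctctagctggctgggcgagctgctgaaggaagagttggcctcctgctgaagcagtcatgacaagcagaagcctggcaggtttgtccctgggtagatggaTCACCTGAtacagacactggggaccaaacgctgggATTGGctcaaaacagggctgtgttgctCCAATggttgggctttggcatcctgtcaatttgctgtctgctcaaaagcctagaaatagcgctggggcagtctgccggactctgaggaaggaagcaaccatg
Fasn: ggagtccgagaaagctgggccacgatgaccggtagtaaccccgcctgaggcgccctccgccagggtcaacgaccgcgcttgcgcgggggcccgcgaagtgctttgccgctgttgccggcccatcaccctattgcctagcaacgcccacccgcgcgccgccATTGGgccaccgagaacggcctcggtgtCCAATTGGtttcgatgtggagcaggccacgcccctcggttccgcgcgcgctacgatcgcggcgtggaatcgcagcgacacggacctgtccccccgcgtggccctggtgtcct

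The motifs searched on both strands were TCACNCCAC and TCACNTGA (forms of the sterol regulatory element), CACGTG (the E-box), CCAAT (the NF-Y box) and GGGCGG (the SP1 box). Of the 10 members 9 had a RefSeq window, with 13 windows in all. TCACNCCAC was found in 1 of these 13 windows, that of Mlxipl, and in 1.24% of all 32851 mouse windows. TCACNTGA was found in the Thrsp window and in 4.18% of all windows, and CACGTG in a Mlxipl window and in 7.15%. The NF-Y box stood in 8 of the 13 windows, of 7 genes, against 37.4% of all windows. The SP1 box stood in 5 of 13, of 4 genes, against 35.7%. In the Fasn window 2 of the 3 NF-Y boxes share bases on opposite strands. These matches describe letters only, and a window without a match says nothing of the factor.

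Across organs, 7 of the 10 genes were highest in liver and differed there from every other organ (limma on 72 jointly normalised arrays, each organ over its 18 arrays). Each range below is the lowest, median and highest normalised signal of 18 arrays, on a linear scale that can be compared between organs for 1 probe set but not between genes. Srebf1 had 423, 1169 and 1752 in liver, against kidney values of 157, 224 and 355, heart values of 127, 178 and 262 and brain values of 117, 170.5 and 224. Mlxipl, which encodes the glucose-responsive ChREBP, had medians of 777 in liver, 275 for kidney, 98.6 for heart and 16.9 for brain. Its kidney, heart and brain arrays did not overlap with each other, the liver range of 230.0 to 1069 reached into that of kidney (170.4 to 347), and liver was 5.39 ± 0.11 (SE) log2 units above brain (adjusted p = 6.77e-46). For Srebf1 heart and brain could not be ordered, with a difference of 0.06 ± 0.09 (adjusted p = 0.524).

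Thrsp, whose product Spot 14 supports lipogenesis, had a median of 4861 in liver, against 196 for kidney, 590.4 for heart and 275 for brain. Its kidney arrays spread from 21.9 to 1860.5, the widest spread of any of the 40 gene and organ pairs on a log scale (SD 2.0 log2 units), and kidney and brain were not separated (-0.57 ± 0.28, adjusted p = 0.058). Fasn, which makes palmitate, had medians of 1582 in liver, 305 for kidney, 118 for heart and 512 for brain. Scd1, which puts the first double bond into stearate and palmitate, had medians of 7584 in liver, 2659.9 for kidney, 207 for heart and 986 for brain. In both, brain stood well above heart (heart minus brain -2.07 ± 0.16 for Fasn and -2.01 ± 0.16 for Scd1).

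Acly, which splits citrate to acetyl-CoA, spanned the narrowest range, with medians of 1489 in liver, 901 for kidney, 376 for heart and 794 for brain. Acaca, the cytosolic carboxylase that supplies malonyl-CoA for synthesis, had medians of 462 in liver, 142 for kidney, 89.3 for heart and 159.9 for brain. Acacb, the carboxylase at the mitochondrial surface whose malonyl-CoA restrains fatty acid oxidation, was instead highest in heart. It had 71.5, 264 and 602 in liver and 34.2, 71.3 and 149 in the kidney, against heart values of 432, 605 and 826 (liver against heart -1.26 ± 0.18, adjusted p = 7.64e-09). In brain it had 0.87, 2.6 and 18.8, at the bottom of the scale.

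The other exceptions were Me1 and Elovl6. Me1, the malic enzyme that supplies NADPH, had medians of 746 in liver, 1231 for kidney, 575 for heart and 232 for brain, and was highest in kidney (liver against kidney -0.71 ± 0.11, adjusted p = 9.79e-08). Elovl6, which lengthens palmitate to stearate, did not pass between liver and kidney by its brightest probe set, with medians of 743 and 660.5 (0.12 ± 0.19, adjusted p = 0.592). Its other 2 probe sets were called higher in liver (0.62 ± 0.20, adjusted p = 0.00571, and 0.85 ± 0.28, adjusted p = 0.00626), so the probe sets disagree. In heart its median was 15.6, so dim that its values there carry little information. Between liver and each other organ, 9 of 10 genes were called against kidney, 10 of 10 against heart and 10 of 10 against brain. The same test called 71.7%, 80.8% and 85.7% of all 27022 probe sets for these pairs, so calling most members was the rule for any gene. The members' median differences of 1.60, 2.67 and 2.13 log2 units compare with -0.04, -0.10 and 0.06 over all probe sets. Marker genes of each organ (albumin, uromodulin, cardiac myosin, synaptic proteins) were summed as a check of the labels, and each sum was highest in its own organ. The deposited median signal per array was lowest in liver (7.5 to 21.5) and highest in brain (24.4 to 40.2), before normalisation.

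**Figure D1:**
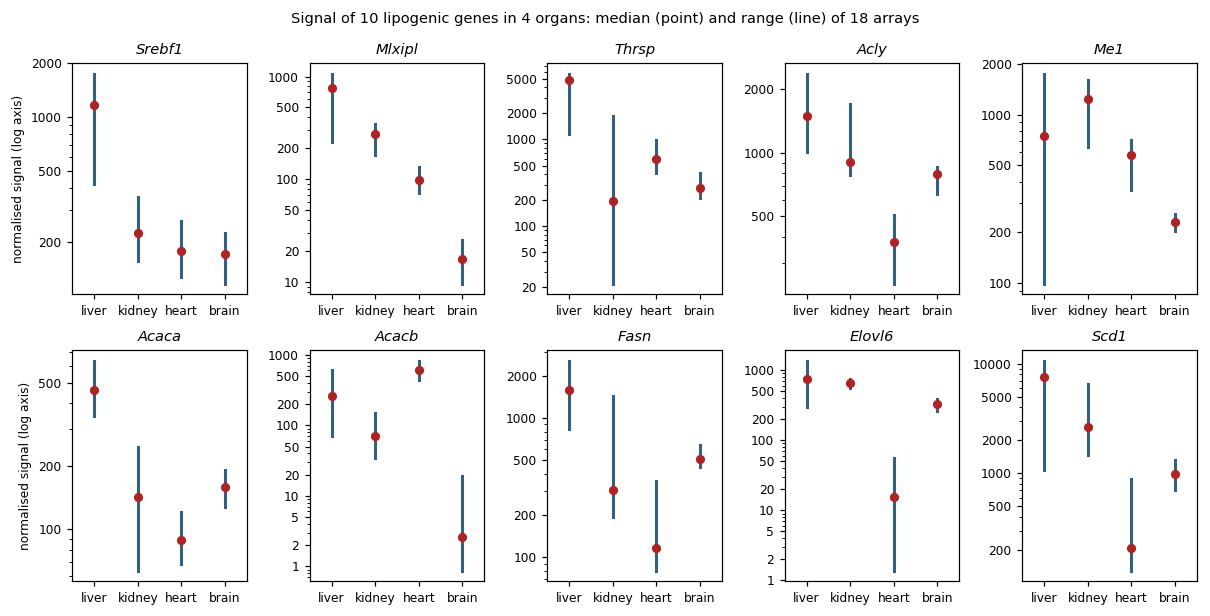
Normalised signal (log axis) of the 10 genes in liver, kidney, heart and brain: the point is the median and the line the range of 18 arrays of all diets and durations, 1 probe set a gene. Liver is at the top for 7 genes in every pairwise test, while Acacb peaks in heart at 605 and Me1 in kidney at 1231.

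In liver at 14 months, QH2 was higher than Q10 for the regulators Srebf1 and Thrsp, and the other 8 members leaned the same way without passing. Srebf1 had 951, 1387 and 1473 on QH2, against 945, 276 and 647 on Q10 and 847, 936 and 978 on control. All QH2 arrays lay above all Q10 arrays, by a narrow margin between the lowest QH2 (951) and the highest Q10 array (945). The difference was 1.17 ± 0.31 log2 units, a 2.26-fold signal (95% interval 0.52 to 1.83, adjusted p = 0.0242). Thrsp had 3221, 5237 and 5107 on QH2, against 4421, 908 and 1463 on Q10 and 4358, 3363 and 4488 on control. Its groups overlapped, since the first Q10 array was at the level of the others, and the difference was 1.29 ± 0.37 (2.45-fold, interval 0.51 to 2.07, adjusted p = 0.0348). Another probe set of Thrsp was also called higher (1.67 ± 0.52, adjusted p = 0.0471), and the dimmest was not (0.10 ± 0.73). Called higher were thus 2 of 10 members, beside 4.81% of all tested probe sets called higher. The members' median was 0.83, beside 0.08 over all probe sets.

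The enzymes followed the same array pattern in liver. Scd1 had 7749.7, 4569 and 6578 on QH2, against 9015, 3333 and 840.2 on Q10 and 6275, 5503 and 7962 on control. Me1 had 305, 318 and 376 on QH2, against 588, 53.8 and 131 on Q10 and 413, 418 and 487 on control. Acacb had 193, 159.6 and 147 on QH2, against 263, 54.0 and 37.7 on Q10 and 167, 156 and 247 on control. In each of these genes the first Q10 array was the highest of the 9 and the other Q10 arrays were the lowest. QH2 against Q10 gave 1.07 ± 0.50 for Scd1, 1.03 ± 0.49 for Me1 and 1.01 ± 0.46 for Acacb (adjusted p = 0.195, 0.193 and 0.173). Acly had 1641, 1457 and 1437 on QH2, against 1693, 802 and 841 on Q10 and 1567, 1136 and 1653 on control. Fasn had 1050.0, 1302 and 1375 on QH2, against 2033, 622 and 680.4 on Q10 and 1249, 1099 and 1589 on control. Elovl6 had 360.1, 439 and 464 on QH2, against 841, 179.6 and 263 on Q10 and 409.8, 514 and 563 on control. The first Q10 array was the highest of the 9 and the other Q10 arrays the lowest in these as well, so the spread within Q10 exceeded the difference between diets. Acaca varied least, with 261, 301 and 308 on QH2, against 384, 259 and 219 on Q10 and 302, 361 and 386 on control. The remaining differences were 0.65 for Mlxipl, 0.53 for Acly, 0.38 for Fasn, 0.29 for Elovl6 and 0.05 for Acaca, with intervals that include 0. For these a p that misses the threshold does not show that the compounds act alike: the interval for Fasn, -0.36 to 1.11, allows a difference above 2-fold.

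Against control at 14 months, Q10 livers gave a negative estimate for 10 of 10 members, with a median of -0.94 beside -0.10 over all probe sets, but none passed (6 at an unadjusted p under 0.05; 6.21% of all probe sets called in limma). Me1 came nearest by its second probe set, which was called at -1.98 ± 0.56 (adjusted p = 0.0421), while its brightest gave -1.44 ± 0.49 (adjusted p = 0.0874). Mlxipl gave -1.18 ± 0.37 (adjusted p = 0.0647), with 671, 137 and 303 on Q10 against 588, 796 and 696 on control. QH2 against control called 0 of 10 members and 0% of all probe sets in limma (0 members and 1673 probe sets at an unadjusted p under 0.05), with a median of -0.12 for the members. The 2 comparisons with Q10 share its 3 arrays, so they are not separate evidence.

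These liver results rest on which Q10 arrays are used. Without the first Q10 array, 10 of 10 members were called lower on Q10 than on control, beside 11.2% of all probe sets. Their estimates ran from -0.55 for Acaca (adjusted p = 0.0391) to -2.37 for Me1 (adjusted p = 4.39e-06). In the same setting 9 of 10 were called higher on QH2 than on Q10, beside 12.5% of all probe sets. Without Q10 arrays 2 and 3, which leaves 1 Q10 array, Srebf1 gave 0.40 and Thrsp -0.0013 for QH2 against Q10. The call of Srebf1, like that of Thrsp, held in 2 of 6 fits that left out 1 array, and was lost without Q10 array 2 or 3 or QH2 array 2 or 3, with estimates of 0.67 to 1.56 for Srebf1 and 0.80 to 1.94 for Thrsp. Over all alternatives the adjusted p ranged from 3.65e-05 to 1 for Srebf1 and from 3.4e-07 to 1 for Thrsp. Other measures differed on Q10 livers as well. The log2 ratio of the 3' to the 5' control probe set of Actb, a measure of RNA length, was 7.36, 3.67 and 5.01 on QH2. It was 3.05, 1.59 and 1.98 on Q10 and 3.49, 3.88 and 4.11 on control. The summed signal of 10 macrophage markers was 1372, 2043 and 1216 on QH2, 5504, 12778 and 18685 on Q10 and 1968, 907 and 2123 on control, and 10 of these 10 markers were called higher on Q10 than on control. The sum of 6 lymphocyte markers was 94.9, 128 and 103 on QH2, 238, 2759 and 654 on Q10 and 80.9, 56.7 and 81.5 on control, with 4 of 6 called higher on Q10 than on control, and its part in these results was not tested. With the Actb ratio or the macrophage sum as a covariate, 0 members were called in either comparison. At 14 months every Q10 array lay below all QH2 and control arrays in that ratio, and above them in that sum. Such fits can hardly separate either measure from diet, so the loss of calls does not tell which of them matters. The share of all probe sets called in those fits is not given here. For QH2 against Q10 the estimates became 0.47 and 0.80 for Srebf1 and 0.57 and 0.26 for Thrsp. In bulk tissue, fewer cells of a type and less RNA per cell cannot be told apart.

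**Figure D2:**
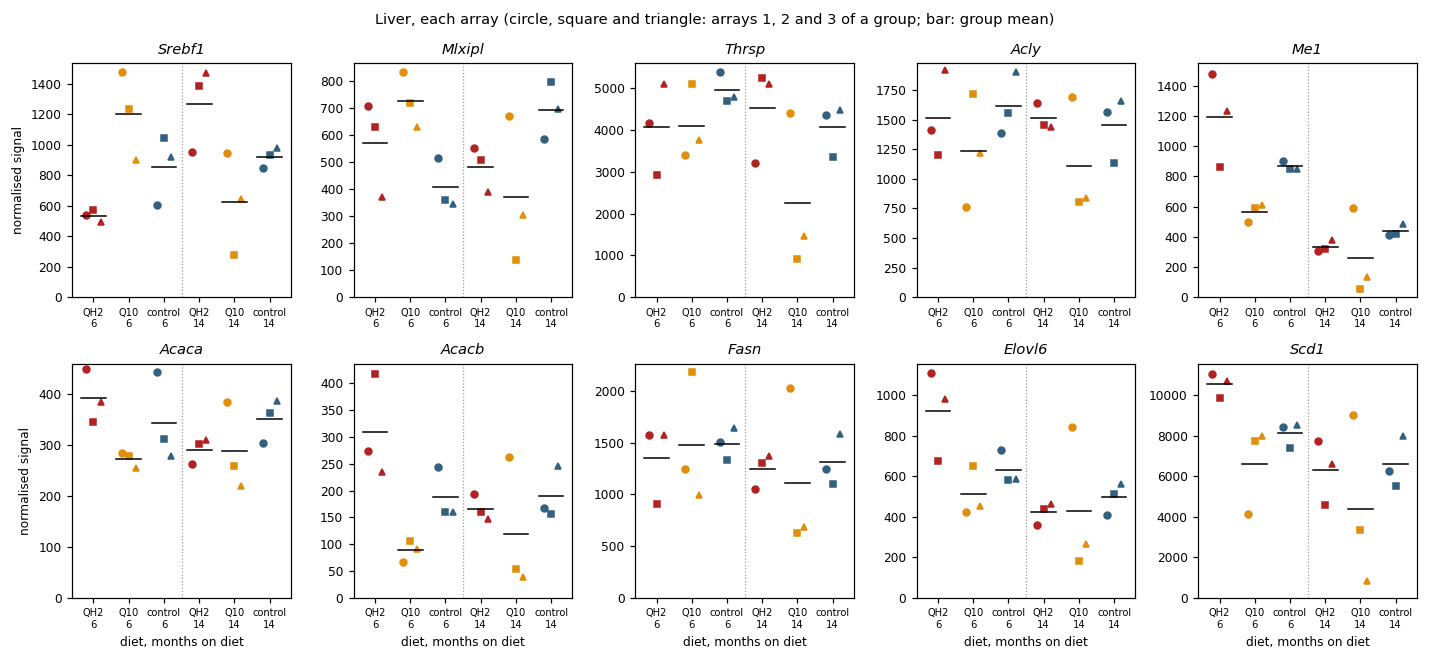
Liver: normalised signal of the 10 genes on each array by diet and months on diet, with circle, square and triangle for arrays 1, 2 and 3 of a group and a bar at the group mean. At 14 months the circle of Q10 stands at the level of the control arrays or above, as in Scd1 (9015), while its square and triangle are the lowest or near the lowest values (3333 and 840.2).

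At 6 months in liver no member was called between diets, and the regulators and enzymes did not lean one way. For QH2 against Q10, Srebf1 had 538, 573 and 495 on QH2, against 1477, 1237 and 902 on Q10 and 603, 1045 and 918 on control. The QH2 arrays were the lowest 3 of the 9, with a difference from Q10 of -1.14 ± 0.31 (adjusted p = 0.0981), opposite in sign to that at 14 months. Acacb had 274, 418 and 234 on QH2, against 67.1, 107 and 91.4 on Q10 and 243, 160.0 and 160.3 on control. Its QH2 arrays lay above all Q10 arrays, at 1.77 ± 0.46 (adjusted p = 0.0722). Me1 had 1479, 862 and 1234 on QH2, against 495, 593 and 609.8 on Q10 and 899.8, 851 and 850.1 on control. Elovl6 had 1109, 677 and 982 on QH2, against 425, 651 and 452 on Q10 and 731, 581 and 586 on control. Scd1 had 11042, 9843 and 10713 on QH2, against 4145, 7749.7 and 7962 on Q10 and 8423, 7409.5 and 8546 on control. In these enzymes the QH2 arrays lay above all Q10 arrays, and those of Scd1 also above all controls. In all 6 of 10 members did not overlap between QH2 and Q10 (Srebf1 lower; Acaca, Acacb, Me1, Elovl6 and Scd1 higher), beside 16.1% of all probe sets. Called were 0 members in limma, with 5 at an unadjusted p under 0.05, and 0.988% of all probe sets. A dim second probe set of Elovl6 was called lower (-2.58 ± 0.55, adjusted p = 0.0287), against the sign of the brightest (0.85 ± 0.36). Against control at 6 months, 0 members passed for QH2 and 0 for Q10 in limma (0 and 2 at an unadjusted p under 0.05), beside 0% and 0.810% of all probe sets.

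For Mlxipl in liver the difference between Q10 and control was called as unequal at 14 and 6 months. At 6 months it had 833, 718 and 632 on Q10, against 517, 361 and 344 on control, with no overlap. At 14 months it had 671, 137 and 303 on Q10, against 588, 796 and 696 on control, where the first Q10 array lay among the controls. The Q10 effect at 14 minus that at 6 months was -2.03 ± 0.52 log2 units (adjusted p = 0.0471), the only called member of 10, beside 2.33% of all probe sets. It held in 1 of 12 fits that left out 1 array, the one without the first Q10 array at 14 months, with estimates of -2.60 to -1.46 over the 12 and an adjusted p of 0.000212 to 0.946 over all alternatives. For QH2 the same difference called 0 members and 0% of all probe sets in limma (1 member at an unadjusted p under 0.05). The dim probe set of Elovl6 was called lower for the Q10 effect (-3.59 ± 0.78, adjusted p = 0.0212), while its brightest gave -0.19.

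In kidney at 14 months, QH2 was higher than Q10 for Srebf1 and for both carboxylases, Acaca and Acacb. Srebf1 had 357, 295 and 378 on QH2, against 179, 166 and 198 on Q10 and 207, 262 and 239.9 on control. The 3 diets did not overlap, and QH2 exceeded Q10 by 0.91 ± 0.20 log2 units (1.88-fold, interval 0.49 to 1.34, adjusted p = 0.0147). Acacb had 158, 84.9 and 87.2 on QH2, against 54.4, 34.6 and 50.3 on Q10 and 40.5, 77.2 and 67.9 on control. Its QH2 arrays lay above all others, at 1.19 ± 0.25 over Q10 (2.28-fold, interval 0.67 to 1.71, adjusted p = 0.0100). Acaca had 145, 207 and 266 on QH2, against 156, 66.3 and 75.5 on Q10 and 106, 168 and 134 on control. Its groups overlapped, and QH2 exceeded Q10 by 1.11 ± 0.31 (2.16-fold, interval 0.46 to 1.77, adjusted p = 0.0434). Of 10 members 3 were called higher and 0 lower, beside 3.98% and 2.06% of all probe sets, and 10 of 10 estimates were positive, with a median of 0.83 beside 0.04 over all probe sets.

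The largest kidney estimate was that of Thrsp. It had 1058, 1445 and 2016 on QH2, against 492, 21.7 and 119 on Q10 and 43.7, 874 and 299 on control. Every QH2 array lay above every other, and the estimate of 3.72 ± 1.15 did not pass (interval 1.30 to 6.14, adjusted p = 0.0615), while its second probe set did (3.88 ± 0.96, adjusted p = 0.0245). Fasn had 403, 847 and 1569 on QH2, against 640.2, 207 and 271 on Q10 and 214, 696 and 468 on control, a difference of 1.30 ± 0.52 (adjusted p = 0.145). Scd1 had 2819, 2905 and 6304 on QH2, against 2679, 1614 and 2522 on Q10 and 2810.3, 3264 and 2306 on control. Scd1 did not pass by its brightest probe set (0.75 ± 0.25, adjusted p = 0.0785) but did by its other (1.09 ± 0.30, adjusted p = 0.0421). Mlxipl, Me1, Acly and Elovl6 gave 0.48, 0.43, 0.17 and 0.13, none of them called.

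Against control, 0 kidney members were called at 14 months for QH2 and 0 for Q10 in limma (3 and 1 at an unadjusted p under 0.05), beside 0% and 0.670% of all probe sets. The medians of the members were 0.48 on QH2 and -0.35 on Q10. At 6 months 0 kidney members were called in limma on QH2 or Q10 against control or between the compounds (2, 0 and 0 at an unadjusted p under 0.05), beside 0.192%, 0% and 0.292% of all probe sets. Srebf1 at 6 months had 226, 167 and 216 on QH2, against 352, 294 and 176 on Q10 and 238, 316 and 330.1 on control. As in liver its QH2 arrays lay below the controls at 6 months (-0.53 ± 0.20, adjusted p = 0.364), which was not called. No kidney member passed for the change of a compound's effect between durations in limma (3 for QH2 and 0 for Q10 at an unadjusted p under 0.05), beside 0% and 0.0074% of all probe sets.

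Markers of fat cells moved in part with Thrsp in kidney, and did not follow Thrsp, Srebf1 or Acacb on every array. The sum of 8 adipocyte markers was 13940.5, 16812 and 11474 on QH2, 11284, 749 and 6654 on Q10 and 2973, 12678 and 3255 on control at 14 months. The Q10 array with the lowest sum had the lowest Thrsp, and the control array with the highest sum had the highest Thrsp among controls. Among QH2 arrays the one with the lowest sum (11474) had the highest Thrsp (2016). The first Q10 array, with a sum of 11284, had a Thrsp of 492. Srebf1 and Acacb were lower on the first Q10 array (sum 11284) than on the third control array (sum 3255). At 6 months the QH2 arrays had sums of 1553, 6399 and 963 beside Thrsp values of 53.4, 696 and 41.6. Of the 8 markers 7 were tested and 1 was called higher on QH2 than on Q10. Ucp1, which marks brown fat, had 893, 1215 and 1851 on QH2, against 59.3, 1.15 and 17.2 on Q10 and 1.42, 1404 and 461 on control. Ucp1 was thus high on all QH2 arrays, low on all Q10 arrays and high on 2 control arrays, and did not follow the sum on the first Q10 array. With the adipocyte sum as a covariate, Srebf1 stayed called (0.96, adjusted p = 0.0463), Acacb gave 0.92 (adjusted p = 0.0674), Acaca 0.66 (adjusted p = 0.231) and Thrsp 1.44 (adjusted p = 0.236). That sum is mostly Fabp4 and Car3 (4019 and 5574 of 11284 on the first Q10 array). The fit therefore adjusts little for Ucp1 or Cidea. Cidea had 902, 1199 and 836 on QH2, against 145, 0.789 and 16.5 on Q10 and 0.783, 930 and 168 on control. Whether Srebf1 keeps its call with those markers as a covariate was not tested. Over all alternatives the adjusted p ranged from 0.00707 to 0.236 for Srebf1, 0.00418 to 0.235 for Acacb and 0.00226 to 0.251 for Acaca. With single arrays left out, Acacb held its call in 5 of 6 fits (0.90 to 1.35), all but the one without Q10 array 2. Srebf1 held in 3 of 6 (0.84 to 1.02), not without Q10 array 2 or QH2 array 1 or 3, and Acaca in 2 of 6 (0.88 to 1.49), not without Q10 array 2 or 3 or QH2 array 2 or 3. Of 8 tested macrophage markers 3 were lower on QH2 than on Q10 in kidney, with sums of 2510, 1851 and 2322 on QH2, 2674, 7691 and 4459 on Q10 and 3222, 1958 and 3362 on control, and the sum of 6 lymphocyte markers was 229.9, 297 and 318 on QH2, 256, 2379.7 and 1707 on Q10 and 702, 363 and 1177 on control. The part of either in these results was not tested. No call was left when only the 2 groups were fitted or the values were used as deposited.

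**Figure D3:**
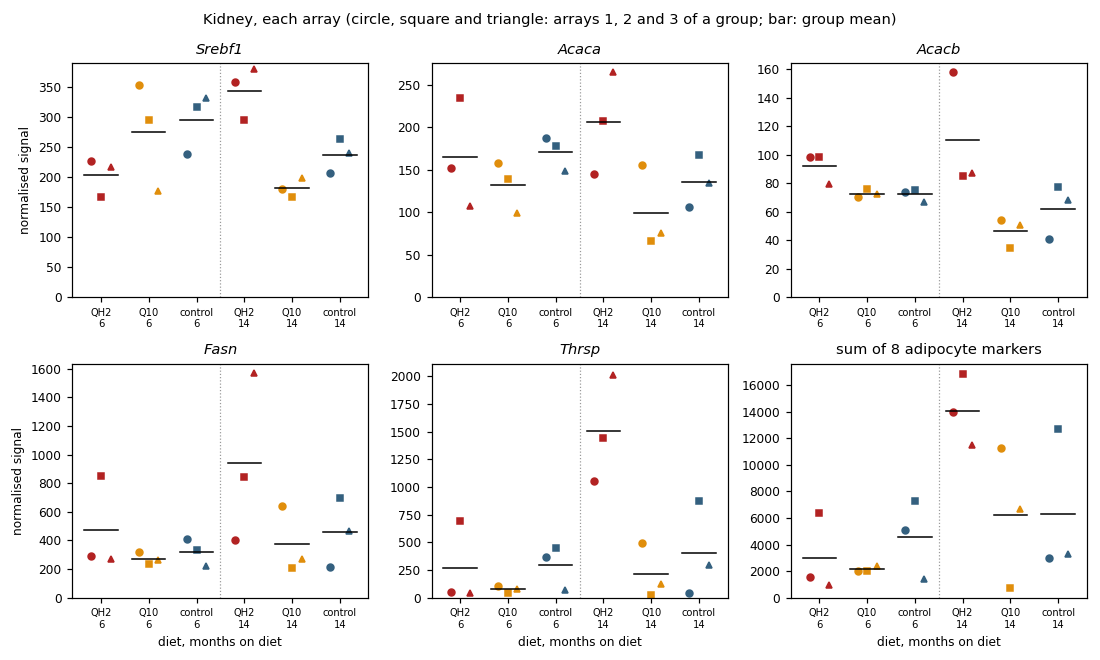
Kidney: normalised signal of Srebf1, Acaca, Acacb, Fasn and Thrsp and the sum of 8 adipocyte markers on each array, drawn as in the plot of liver arrays. The 3 QH2 arrays at 14 months are above all Q10 arrays of that duration in Srebf1, Acacb and Thrsp. They also hold high adipocyte sums (11474 to 16812), with arrays of the other diets high in the sum and in Thrsp as well.

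In heart and brain no member was called between diets at either duration. In heart the 6 diet comparisons called 0 of 10 members in limma (0 to 3 at an unadjusted p under 0.05), beside 0% of all probe sets, except QH2 against Q10 at 6 months with 0.0666%. In brain they called 0 of 9 members (0 or 1 at an unadjusted p under 0.05), beside 0% of all probe sets in 5 comparisons. QH2 against control at 14 months was the exception there, with 0.0111%. The change of a compound's effect between durations called 0 members in either organ, with 2 and 2 in heart and 1 and 0 in brain at an unadjusted p under 0.05 for QH2 and Q10. Beside these, 0.0296% of all probe sets were called for QH2 in brain and 0% otherwise. The nearest was Me1 in heart at 14 months, with 345, 321 and 365 on Q10 against 503, 456 and 537 on control, where the groups did not overlap (-0.53 ± 0.12, adjusted p = 0.0945). Fasn in heart at 14 months had 118, 318 and 113 on QH2, against 101, 109 and 113 on Q10 and 97.4, 99.1 and 86.2 on control. The QH2 estimate over Q10 of 0.58 ± 0.31 (interval -0.06 to 1.22, adjusted p = 0.51) was not called. The second QH2 array was the highest of the 9, as it was for Scd1 (831) and Thrsp (921). Of the fat cell markers, Adipoq, Car3, Retn, Lep, Cidea and Ucp1 were highest on the same array. Adipoq had 35.0, 247 and 86.8 on QH2, against 52.5, 17.3 and 29.9 on Q10 and 37.8, 46.5 and 41.4 on control. Ucp1 was 151 there, against 4.4 or less on the other arrays. Fabp4 was instead lowest on that array (4743), and Lipe was not highest. The sum of 8 adipocyte markers was 6756 there, below Q10 arrays 2 and 3 (7880 and 7007). That sum is mostly Fabp4 (4743 on the QH2 array, 7495 and 6547 on those Q10 arrays), so it says little of the other markers. Car3 had 1154 on the QH2 array, against 59.3 and 76.7 on those Q10 arrays. The part of fat cells was not tested. Srebf1 in brain at 14 months had 309, 268 and 304 on QH2, against 288, 299 and 298 on Q10 and 242, 268 and 238 on control. QH2 and Q10 overlapped there, with a difference of -0.01 (interval -0.32 to 0.30). The median half-width of a member's 95% interval was 0.22 log2 units in brain and 0.43 in heart, against 0.77 in liver and 0.47 in kidney. For QH2 against Q10 at 14 months in brain, the interval of Fasn was -0.16 to 0.25 and that of Scd1 -0.28 to 0.16, so differences of the size seen in liver lay outside them.

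**Figure D4:**
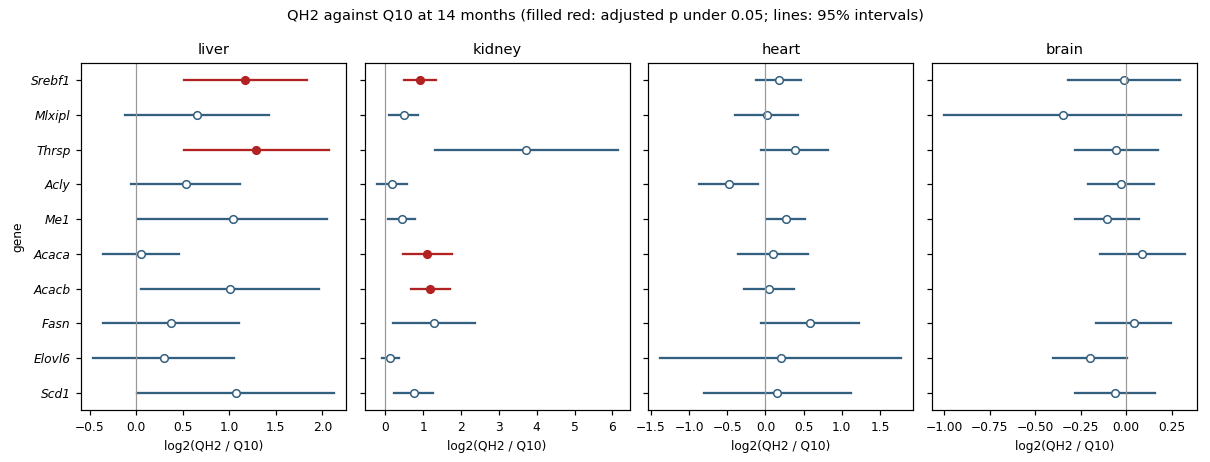
QH2 against Q10 at 14 months: log2 difference of each gene with its 95% interval in 4 organs, filled where the adjusted p is under 0.05. The axes differ between organs. All 10 estimates are positive in liver and in kidney, with 2 and 3 called, and brain estimates lie within 0.35 of 0.

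The difference between organs was tested directly, as the effect in liver minus the mean of kidney, heart and brain. For Q10 against control at 14 months, 2 of 10 members differed, beside 6.65% of all probe sets: Mlxipl (-1.06 ± 0.30, adjusted p = 0.0219) and Me1 (-0.99 ± 0.31, adjusted p = 0.0449). Both rest on replicates 2 and 3, since each call was lost when either was left out of all groups. For QH2 against Q10 at 14 months, 0 members differed in limma (2 at an unadjusted p under 0.05), beside 8.66% of all probe sets. The second probe set of Me1 did pass there (1.34 ± 0.42, adjusted p = 0.0349).

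Between 14 and 6 months, over the 3 diets, Me1 was lower in liver, kidney and heart (with values as deposited the kidney call was lost, at -0.30 with an adjusted p of 0.114, and heart turned to 0.34). In liver its lowest, median and highest signals over 9 arrays were 53.8, 376 and 588 at 14 months, against 495, 851 and 1479 at 6 months (-1.53 ± 0.28, adjusted p = 0.000963). Within diets the change was -1.81 on QH2, -1.80 on Q10 and -0.98 on control. Without Q10 arrays 2 and 3 of the liver it was -0.91 (adjusted p = 2.9e-05). In kidney Me1 had 690.4, 1021 and 1318 at 14 months, against 1355, 1432 and 1739 at 6 months, with no overlap (-0.59 ± 0.10, adjusted p = 0.000185). In heart it had 321, 392 and 537, against 520.2, 583 and 656 (-0.48 ± 0.07, adjusted p = 6.63e-05). Its second probe set was called lower in liver (-1.26 ± 0.32), did not pass in kidney or heart, and was called higher in brain (0.97 ± 0.16), so the probe sets of Me1 disagree outside liver. In brain the brightest had 301, 319.7 and 371 at 14 months, against 299, 346 and 367 at 6 months, and was not called.

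Elovl6 was lower at 14 months in liver, with 179.6, 439 and 841, against 425, 651 and 1109 at 6 months (-0.67 ± 0.21, adjusted p = 0.0284). Its other 2 probe sets did not pass (-0.57 ± 0.25 and 0.51 ± 0.32), and its call held in 11 of 18 fits that left out 1 array. Without Q10 arrays 2 and 3 it gave -0.24 (adjusted p = 0.223). Scd1 in liver gave -0.74 ± 0.29 (adjusted p = 0.0802) by its brightest probe set, and its other was called at -1.45 ± 0.29 (adjusted p = 0.00204). Of Acly 2 dimmer probe sets were called lower in liver, at -0.87 ± 0.18 and -0.45 ± 0.13, while the brightest gave -0.10 ± 0.16. Called lower in liver were 2 of 10 members, beside 9.53% of all probe sets, and in kidney 1 of 10 beside 21.1%.

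Srebf1 was higher at 14 months in heart and in brain. In heart it had 154, 184 and 233 at 14 months, against 109, 127 and 156 at 6 months (0.53 ± 0.08, adjusted p = 0.000138), with changes of 0.50 on QH2, 0.57 on Q10 and 0.52 on control. In brain it had 238, 288 and 309, against 181, 223 and 327 (0.29 ± 0.09, adjusted p = 0.00686), with 0.57 on QH2, 0.26 on Q10 and 0.05 on control. The heart estimates were thus alike in size on each diet, while that in brain was near 0 on control. A difference between diets is not shown by this: the compound's effect at 14 minus 6 months called 0 of 9 brain members. This held for QH2 and for Q10, beside 0.0296% and 0% of all probe sets. Between 14 and 6 months Srebf1 gave 0.09 ± 0.18 in liver and -0.03 ± 0.12 in kidney.

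Thrsp and Scd1 were also higher at 14 months in brain. Thrsp had 402, 483 and 559 at 14 months, against 308, 334 and 382 at 6 months (0.47 ± 0.06, adjusted p = 4.21e-06). Scd1 had 1216, 1428 and 1532, against 905, 1001 and 1179 (0.48 ± 0.06, adjusted p = 2.34e-06). Neither overlapped between ages, and the second probe set of each was called in the same direction. Called higher in brain were 3 of 9 members, beside 28.5% of all probe sets, and in heart 1 of 10 higher and 1 lower, beside 9.46% and 9.39%. These shares are near the background. Other probe sets disagreed with the brightest: 1 of Acly was called higher in kidney, heart and brain (0.43 in each), a dim 1 of Elovl6 higher in kidney (1.32 ± 0.31) and lower in brain (-0.75 ± 0.15), and the other of Scd1 lower in kidney (-0.50 ± 0.17). The direction of weaker age changes depends on scaling. With values as deposited, 99.8% of the calls over all probe sets in heart were higher, against 50.2% after normalisation. As deposited, 10 of 10 members were called higher in heart, Me1 among them, beside 20977 of 27022 probe sets called in either direction. Being called higher was thus the rule for any probe set there. The shares of calls that were higher were 93.5% against 54.1% in liver, 96.8% against 48.4% in kidney and 88.7% against 50.7% in brain. Me1 in liver, and Srebf1, Thrsp and Scd1 in brain, kept their direction under each scaling. For the brain genes this is no test, because both other scalings moved all probe sets upward there. The brain median of all probe sets was 0.01 after normalisation, 0.42 as deposited and 0.20 with a common median.

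**Figure D5:**
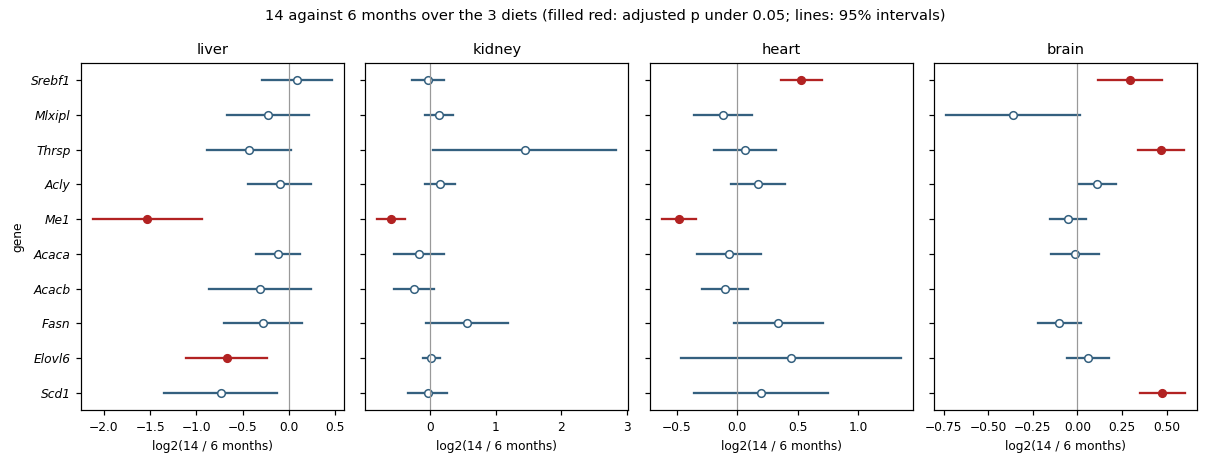
14 against 6 months over the 3 diets: log2 difference of each gene with its 95% interval in 4 organs, filled where the adjusted p is under 0.05. The axes differ between organs. Me1 is lower in liver (-1.53), kidney (-0.59) and heart (-0.48), while Srebf1 is higher in heart (0.53) and brain (0.29).

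Tested directly, the change between durations in liver minus the mean of the other organs was lower for Me1 (-0.93 ± 0.18, adjusted p = 0.000183), Scd1 (-0.88 ± 0.27, adjusted p = 0.0151) and Acly (-0.56 ± 0.12, adjusted p = 0.00101). These were 3 of 10 members, beside 19.5% of all probe sets, and 10 of 10 estimates were negative. The calls of Me1 and Acly held in 3 of 3 fits that left out a replicate number, while that of Scd1 held in 1 of 3 and was lost without replicate 2 or 3 (-1.39 to -0.48, adjusted p up to 0.36 over the alternatives).

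The members varied together in liver and less so elsewhere, which is given as a description without a test. Over the 18 liver arrays the 45 pairs of members had a median Pearson correlation of 0.62, and 0.64 after each group's mean was taken out, with 45 of 45 pairs positive. The closest liver pair within groups was Me1 and Elovl6 (0.94), and the loosest Srebf1 and Scd1 (0.03). In kidney the median was 0.42 (0.36 within groups), with Acaca and Fasn the closest pair (0.90) and Thrsp and Fasn next (0.88). The medians were 0.17 in heart and 0.14 in brain. All pairs share their arrays, RNA and scaling, and the 2 low liver Q10 arrays are among the 18.

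The genes whose liver signal was most like that of Scd1 over 18 arrays, outside the lipogenic lists, were Aqp8 (Pearson 0.94), Fabp3 (0.93), Hamp2 (0.90), F10 (0.90) and Dnajc1 (0.89). For Fasn in liver they were Zdhhc5 (0.87), 2610005L07Rik (0.86), Aph1a (0.82), Aldh1b1 (0.81) and Fam210b (0.81). In kidney Fasn was most like Prkar2b (0.81), Hspa9 and Ppp1r3b (0.80 each), Pygl and Otop1 (0.79 each). Scd1 in kidney was most like Gtpbp8 (0.83), Zc2hc1a (0.81), Acot11 (0.80), Sec31a (0.79) and Dixdc1 (0.78). These genes were picked for the highest Pearson values. Correlations by rank (Spearman) were lower for each gene but Prkar2b (0.84), down to 0.48 for Fam210b and 0.52 for Zc2hc1a.

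A list of 54 further genes of lipogenesis and its control was read beside the members, of which 48 had a probe set of their own. In liver 12 of 47 tested passed for QH2 against Q10 at 14 months, 10 higher and 2 lower, beside 4.81% and 4.93% of all probe sets, with a list median of 0.36 beside 0.08. These calls rest on the same Q10 arrays as those of the members: without Q10 array 1 there were 22 higher and 2 lower, and without Q10 arrays 2 and 3 none (beside 0.0222% and 0.0185% of all probe sets). Higher were Mlycd (0.98 ± 0.23), which removes malonyl-CoA, the citrate carrier Slc25a1 (0.70 ± 0.17), the elongase Elovl3 and Mid1ip1 (0.97 ± 0.25), a partner of Thrsp that activates acetyl-CoA carboxylase. Acsl3 (1.03 ± 0.28), the acetyl-CoA synthetase Acss2 (1.57 ± 0.44), Dgat1, Idh1, Akt2 and Agpat2 were higher too. Lower were Txnip, a glucose-responsive gene (-1.31 ± 0.28), and Scd2 (-1.95 ± 0.43). Scd2, a paralogue of Scd1, had 24.3, 35.3 and 28.9 on QH2, against 43.9, 296 and 117 on Q10 and 28.0, 25.0 and 35.8 on control, and was highest on Q10 arrays 2 and 3. For Q10 against control in liver at 14 months, Scd2 was higher (1.94 ± 0.43), and Slc25a1, Srebf2, Fads1, Mlycd, Idh1 and Dgat1 were lower, beside 3.88% of all probe sets higher and 2.33% lower. At 6 months Mid1ip1 alone passed, lower on QH2 than on Q10 (-1.20 ± 0.25, adjusted p = 0.0269).

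In kidney 12 of 47 listed genes passed for QH2 against Q10 at 14 months, 12 higher and 0 lower beside 3.98% and 2.06% of all probe sets, with a list median of 0.22 beside 0.04. With the adipocyte sum as a covariate 5 were higher and 0 lower, beside 1.2% and 0.474% of all probe sets. The higher genes were Acss2 (0.59 ± 0.11), the transketolase Tkt (1.02 ± 0.19), Dgat2 (0.81 ± 0.16), Khk, Acsl3, Rxra, Agpat2 (1.35 ± 0.31), Slc25a1, Pnpla3 (1.24 ± 0.34), Dgat1, Idh1 and Akt2. No other diet comparison called a listed gene in kidney, heart or brain. Between durations, the numbers higher and lower were 3 and 6 of 47 for liver, 8 and 9 of 47 for kidney, 12 and 2 of 48 for heart, and 22 and 8 of 43 for brain. Over all probe sets 20.8%, 40.9%, 18.8% and 56.2% were called in these organs, so the liver and kidney counts lie at or below the background. Tkt, of the pentose phosphate pathway, was lower at 14 months in liver (-0.37 ± 0.13) and kidney (-0.98 ± 0.11) and higher in heart (0.45 ± 0.10) and brain (0.71 ± 0.06).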

How the data were processed

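The authors deposited linear signal intensities, with a value for each probe set on each array, made with GCOS per the submitters' processing notes. How GCOS was set is not given in the sources used here. Groups and replicate numbers came from the labels. Arrays differed in overall level, so the 18 arrays of each organ were quantile normalised. The 64 control probe sets were left out, an offset of 1 was added, log2 was taken, and probe sets with a mean above the 40th percentile of the organ were tested (27022 per organ). Each organ was fitted with limma 3.58.1 in R 4.3.3, with 1 mean for each of 6 groups, moderated tests with an intensity trend, and Benjamini-Hochberg adjustment over all tested probe sets of a comparison. Called means an adjusted p under 0.05, higher or lower are log2 differences with moderated standard errors, and ± marks them throughout. There were 9 comparisons per organ. Organs were compared on all 72 arrays normalised together.

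Each gene is represented by whichever of its tested single-symbol probe sets was brightest, and other probe sets are named where their call differs in the comparisons of diets or durations, and for Elovl6 between liver and kidney. Of the probe sets 34945 had 1 symbol, 932 several and 9160 none. The Srebf1 probe set does not tell the SREBP1a and SREBP1c transcripts apart in the annotation used. The members, gene lists and tests were chosen with earlier results of these data known. The number of arrays limits the precision. On simulated data for QH2 against Q10 at 14 months, 29 of 100 probe sets changed 2-fold and 71 of 100 changed 4-fold were recovered in liver, and 61 and 91 in kidney, with 5 and 10 false calls. Deviations of same-numbered arrays of different groups (other diet or duration) in an organ correlated above 0.1 in 6 of 180 pairs, so the numbers were not taken as pairs. The alternatives tried were scaling, offset, filter, variance trend, array weights, the Actb ratio as covariate, the replicate block, single arrays left out, other probe sets and fits of only the groups compared. Added after seeing the data were the adipocyte and macrophage covariates and the fit without liver Q10 arrays 2 and 3 at 14 months.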

Additional observations from a re-analysis of the deposited data

Results flagged for a closer look

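The Q10 effect on Mlxipl in liver differed between 14 and 6 months by -2.03 log2 units, by the test of the difference itself. By the same kind of test, the effect of Q10 against control at 14 months differed between liver and the mean of the other organs for Mlxipl (-1.06) and Me1 (-0.99). The change between 14 and 6 months differed between liver and the mean of the other organs for Acly (-0.56), Me1 (-0.93) and Scd1 (-0.88). The Scd1 call was lost without replicate 2 or 3, as were those of Mlxipl and Me1 for Q10 against control.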

How the results depend on the processing

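Counts below are members called, against 2 for QH2 over Q10 at 14 months, 2 for duration and 1 (Mlxipl) for the Q10 effect at 14 minus 6 months in liver, 3 and 1 for the first 2 of these in kidney, 2 for duration in heart and 3 in brain. For most settings the share of all probe sets called is not given here. Whether the members or all probe sets changed cannot be read from those counts alone. In liver the first 3 counts became 0, 1 and 0 with values as deposited and with no variance trend, and 10, 6 and 6 with array weights. The liver weights did not converge and gave Q10 array 3 at 14 months a weight of 32.5, against 0.252 and 0.327 for the other Q10 arrays, so the liver counts with array weights rest on that array. With the Actb ratio as covariate or only the groups compared, QH2 over Q10 and the Q10 effect gave 0 and 0. Without Q10 arrays 2 and 3, and with the macrophage covariate, the 3 counts were 0, 1 and 0, and Thrsp for QH2 over Q10 without those arrays was -0.0013. With any probe set of a gene, duration gave 4 and the Q10 effect 2. Comparisons with 0 calls in liver changed as follows: QH2 over Q10 at 6 months gave 1 with a common median, 2 with array weights, 1 with the Actb ratio, 1 with any probe set and 3 with only the groups compared; Q10 against control at 14 months gave 10 with array weights and 1 with any probe set. In kidney QH2 over Q10 gave 0 as deposited and with only the groups compared, 6 with a common median, 8 with array weights, 5 with any probe set and 1 with the adipocyte covariate. Duration in kidney gave 4 as deposited, 3 with a common median, 2 with array weights, 4 with any probe set and 3 with the adipocyte covariate. Duration in heart gave 10 as deposited and 4 with a common median, and in brain 8, 8, and 6 with any probe set. Heart Q10 against control at 14 months gave 1 with array weights. Liver minus the other organs gave 0 as deposited and 1 with no filter for Q10 against control at 14 months (main 2), and 9 as deposited for duration (main 3). With the replicate block, Q10 against control at 14 months in liver gave 1 member against 0, and no other count of members changed by over 1.5 times. Leaving out 1 array at a time gave 0 to 9 for liver QH2 over Q10 at 14 months, 0 to 10 for Q10 against control, 1 to 6 for duration and 0 to 5 for the Q10 effect. It gave 0 to 8, 0 to 1 and 1 to 3 for the first 3 of these in kidney, 0 to 1 for Q10 against control and 2 to 3 for duration in heart, and 3 to 4 for duration in brain. Leaving out a replicate number gave 0 to 5, 0 to 2 and 2 to 4 for liver minus the other organs (Q10 against control, QH2 over Q10, duration). Organ pairs gave 9 to 9 (liver and kidney), 9 to 10 (liver and heart), 10 to 10 (liver and brain), 10 to 10 (kidney and heart), 8 to 10 (kidney and brain) and 9 to 9 (heart and brain). Signs turned as follows for duration: in heart as deposited Mlxipl 0.74, Me1 0.34, Acaca 0.79 and Acacb 0.72; in brain as deposited Me1 0.45, Acaca 0.47 and Fasn 0.42, and with a common median 0.23, 0.25 and 0.20; in kidney with a common median Elovl6 -0.25. Between organs they turned as deposited for Elovl6 (liver against kidney -0.45) and Srebf1 (kidney against brain -0.021, heart against brain -0.77), and with a common median for Acaca (kidney against brain 0.031). As deposited, the median of all probe sets shifted by 0.80 in heart, 0.42 in brain, 0.40 in kidney and 0.20 in liver between durations, and by -0.39 for liver QH2 over Q10 at 14 months, where the members' median was 0.48. The share of calls that were higher in that comparison was 3.57% as deposited and 67.6% with a common median, against 49.4%, and in kidney 20.4% and 85.6%, against 65.8%. Other causes were not tested.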
